A study of Mus musculus with 12 samples.

Results

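Inflammatory mRNAs are cleared by a small set of RNA-binding proteins, and the 8 genes described here encode 3 families of them. The tristetraprolin family comprised Zfp36 (tristetraprolin itself), Zfp36l1 and Zfp36l2. The Regnase family comprised Zc3h12a, Zc3h12c and Zc3h12d, and the Roquin family comprised Rc3h1 and Rc3h2. The paralog Zc3h12b is not among the 8 and was counted with the other RNA-binding proteins. Members were taken by gene name, each matched 1 identifier among the 55416 in the count table, and all 8 were among the 26420 genes that passed the filter on low counts. RNA came from SIM-A9, a mouse microglial cell line of C57BL/6 origin per the labels, in H14 cells, which the labels call MOK-KO (here KO; MOK is a protein kinase), and in wild-type cells (WT). Each line received LPS, the bacterial product that activates Toll-like receptor 4, at 1 ug/mL for 5 h, or medium alone. There were 3 libraries in each of the 4 groups, 12 in all. H14 is the sole KO line, and what sets it apart from WT cells besides MOK cannot be told apart from the loss of MOK. The labels call the replicates biological without saying how the cultures were kept apart, so p-values measure the spread between these libraries.

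The tristetraprolin proteins hold a pair of CCCH zinc fingers that bind AU-rich elements in 3′ UTRs and bring in the CCR4-NOT deadenylase, which removes the poly(A) tail. The Regnases carry an RNase domain, and Zc3h12a cuts stem-loops with a pyrimidine-purine-pyrimidine loop, among them stem-loops in its own mRNA. The Roquins bind closely related stem-loops and also bring in CCR4-NOT. In macrophages and microglia these proteins are known for limiting cytokine mRNAs such as Tnf and Il6 after Toll-like receptor signalling, and tristetraprolin is held inactive by the kinase MAPKAPK2.

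The first set of sequences shows the tristetraprolin binding nonamer UUAUUUAUU, in capitals, in the 3′ UTRs of the members that hold it and of Tnf, the best-known target. Sequences are from GENCODE transcripts on GRCm38, written 5′ to 3′ on the gene's strand, taking the longest annotated 3′ UTR of each gene. Only the transcript strand was searched, since the motif is RNA.
Zfp36 (chr7:28376951-28376980, minus strand): uuaugacgacuUUAUUUAUUguauuaagau
Zfp36l1 (chr12:80108167-80108196, minus strand): aaacuguuggaUUAUUUAUUuuagaaauuc
Zfp36l2 (chr17:84184914-84184943, minus strand): aacuauuuaacUUAUUUAUUaucuugugaa
Rc3h1 (chr1:160970042-160970071, plus strand): uacuuuacucaUUAUUUAUUgagaugagga
Rc3h2 (chr2:37373287-37373316, minus strand): acaaagacauuUUAUUUAUUuuacucugua
Tnf (chr17:35199676-35199705, minus strand): auuuaUUAUUUAUUUAUUAUUUAUUUAUUu
The nonamer occurred once in each of these 5 members, and it was not found in the 3′ UTRs of the 3 Regnase members. Over 21020 genes with an annotated 3′ UTR, 7.66% held it. That share was not matched for 3′ UTR length, which ran from 774 bases in Zfp36 to 7181 in Rc3h1 among these 5 members. Of 33 genes listed as targets of these families, 13 held it, and Tnf held 5 copies, 4 of them in the stretch shown as overlapping pairs.

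The second set shows stem-loops of the kind that Regnases and Roquins bind, with the paired stem and the loop in capitals. The search took 6 Watson-Crick pairs closing a loop of 3 bases in the order pyrimidine, purine, pyrimidine.
Zc3h12a (chr4:125119065-125119087, minus strand): uguuGAUACACAUUGUAUCucug
Zc3h12a (chr4:125118883-125118905, minus strand): aguuAGGCACCAUGUGCCUgcuc
Zc3h12c (chr9:52113465-52113487, minus strand): uaauCUGAACCAUGUUCAGcaaa
Rc3h1 (chr1:160971656-160971678, plus strand): caauAACUUCUGUGAAGUUgccu
Rc3h2 (chr2:37373805-37373827, minus strand): aauuAACUUCUGUGAAGUUguuu
Tnf (chr17:35199581-35199603, minus strand): acauGUUUUCUGUGAAAACggag
Nfkbid (chr7:30428398-30428420, plus strand): agguGAUUUCUGUGAAAUCgagc
Nfkbiz (chr16:55812610-55812632, minus strand): aaguUGUUUCUAUGAAACAaacc
Of the 8 members, 4 held such a stem-loop (Zc3h12a with 3, Zc3h12c with 1, Rc3h1 with 4 and Rc3h2 with 1), against 8.46% of the 21020 genes. That share was not matched for 3′ UTR length, which was 856 bases in Zc3h12a, 4062 in Zc3h12c, 7181 in Rc3h1 and 5331 in Rc3h2. The Rc3h1 stretches that begin at bases 1997 and 2000 of its 3′ UTR, not shown, overlap each other in a UA-rich sequence. Rc3h1 and Rc3h2 carry the same stem and loop in these letters. No match was found in the 3 tristetraprolin genes or in Zc3h12d, and 11 of the 33 target genes held a match. A match is a string of letters, and binding was not measured.

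Zfp36 is an immediate-early gene whose RNA rose in both lines, and its upstream sequence is shown as an example. Zc3h12a, Zc3h12c, Rc3h1 and Rc3h2 also rose in both lines, and their upstream sequences are not shown. The 250 bases before the RefSeq start (GRCm38.p6, chr7:28379229-28379478, minus strand) hold in capitals a CArG box, the serum response factor motif, 58 to 49 bases before the start, and a GAS motif (TTCNNNGAA), which STAT proteins bind, 17 to 9 bases before it.
Zfp36 upstream: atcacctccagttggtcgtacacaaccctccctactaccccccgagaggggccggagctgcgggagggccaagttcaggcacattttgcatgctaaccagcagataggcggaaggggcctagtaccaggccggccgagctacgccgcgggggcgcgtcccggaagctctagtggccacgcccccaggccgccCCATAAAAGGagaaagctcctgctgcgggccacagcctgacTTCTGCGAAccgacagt
Both strands were searched, and the motifs shown do not overlap. Among 32851 upstream windows of the same length, 1.47% held a CArG box and 7.02% a GAS motif. The search also covered the kappaB motif (7.25% of windows), AP-1 (TGANTCA, 6.75%), CRE (TGACGTCA, 1.55%) and a PU.1 core (GAGGAAGT, 2.44%). AP-1 letters were found upstream of Zfp36l1 and Rc3h1, and a kappaB motif upstream of start site 1 of Zc3h12c and not of its start site 2. None of the motifs searched was found upstream of Zc3h12a, Zc3h12d or Rc3h2. Entries were found for 7 of the 8 members, the exception being Zfp36l2.

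Library totals ran from 39.7 M to 72.9 M counts. Mok itself, the gene the KO label refers to, averaged 1.52 counts per M of the scaled library (CPM) in KO under LPS and 2.5 CPM in WT under LPS, and 2.25 CPM in KO in medium and 3.35 CPM in WT in medium. The difference was -0.72 ± 0.19 under LPS (adjusted p = 0.0177, edgeR) and -0.58 ± 0.18 in medium (0.0501), and with LPS it did not pass on leaving out KO replicate 3 (0.0753) or WT replicate 1 (0.0785) or 3 (0.0515). The difference in medium passed under 8 alternatives, among them DESeq2 (0.00458), protein-coding genes only (0.0284), RLE scaling (0.0443) and leaving out replicate 2 of KO (0.0412) or WT (0.0416) in medium. The KO libraries were all lower than the WT libraries within a treatment, Mok RNA remained detected in KO, and the altered part of the gene is not given in the sources used here. Of 10 myeloid markers, 9 or 10 averaged over 1 CPM in every group, with the exception Aif1 under LPS in KO, and their summed level was 1490 to 2050 CPM in KO under LPS, 949 to 1390 CPM in KO in medium, 2080 to 2460 CPM in WT under LPS and 1310 to 1540 CPM in WT in medium. The homeostatic microglia markers P2ry12, Sall1, Siglech, Fcrls and Gpr34 averaged under 1 CPM in all 4 groups. Processed pseudogenes held 6.64% to 7.35% of counts in LPS-treated KO libraries and 12.8% to 14.3% in the untreated ones. In WT they held 6.28% to 7.05% of counts with LPS and 6.58% to 13% without it. Their part in the LPS effects was not tested beyond the covariate fit given in the closing section.

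LPS raised 5 of the 8 members in the KO line and 5 of 8 in the WT line (edgeR quasi-likelihood test, Benjamini-Hochberg adjusted p under 0.05 over all 26420 genes). These were Zfp36, Zc3h12a, Zc3h12c, Rc3h1 and Rc3h2 in each line. Zfp36l2 fell in both lines, and Zfp36l1 and Zc3h12d did not pass in either. Of all genes tested, 52% were called under LPS in KO (25.3% higher and 26.8% lower) and 32.6% in WT (16.3% higher and 16.3% lower). In bulk RNA fewer cells of a type and less RNA per cell cannot be told apart. With scaling by library size alone the counts shifted to 4182 genes higher and 10422 lower in KO, against 6679 and 7070, and to 2104 higher and 9985 lower in WT, against 4303 and 4297. The median log2 fold change of the 8 members was 0.92 in KO and 1.16 in WT, beside -0.04 and -0.07 over all genes.

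Between the lines under LPS, 7 of the 8 members differed, 4 higher in KO and 3 lower, where 20.6% of all genes were called, 7.87% higher and 12.7% lower. With scaling by library size alone those counts over all genes were 2922 higher and 2936 lower, against 2080 and 3351. Zc3h12d, Zc3h12c, Zfp36l1 and Zfp36l2 were higher in KO, and Zfp36, Rc3h2 and Zc3h12a were lower. In medium only Zc3h12d was called higher and only Rc3h2 lower in KO, where 19.2% of all genes were called, 6.88% higher and 12.3% lower. None of the 8 passed for the difference between the LPS effects of the lines in edgeR, where 3 had an unadjusted p under 0.05, DESeq2 called 2, and 1.6% of all genes were called, 0.693% higher and 0.908% lower (with library size alone 360 and 236 genes, against 183 and 240).

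**Figure D1:**
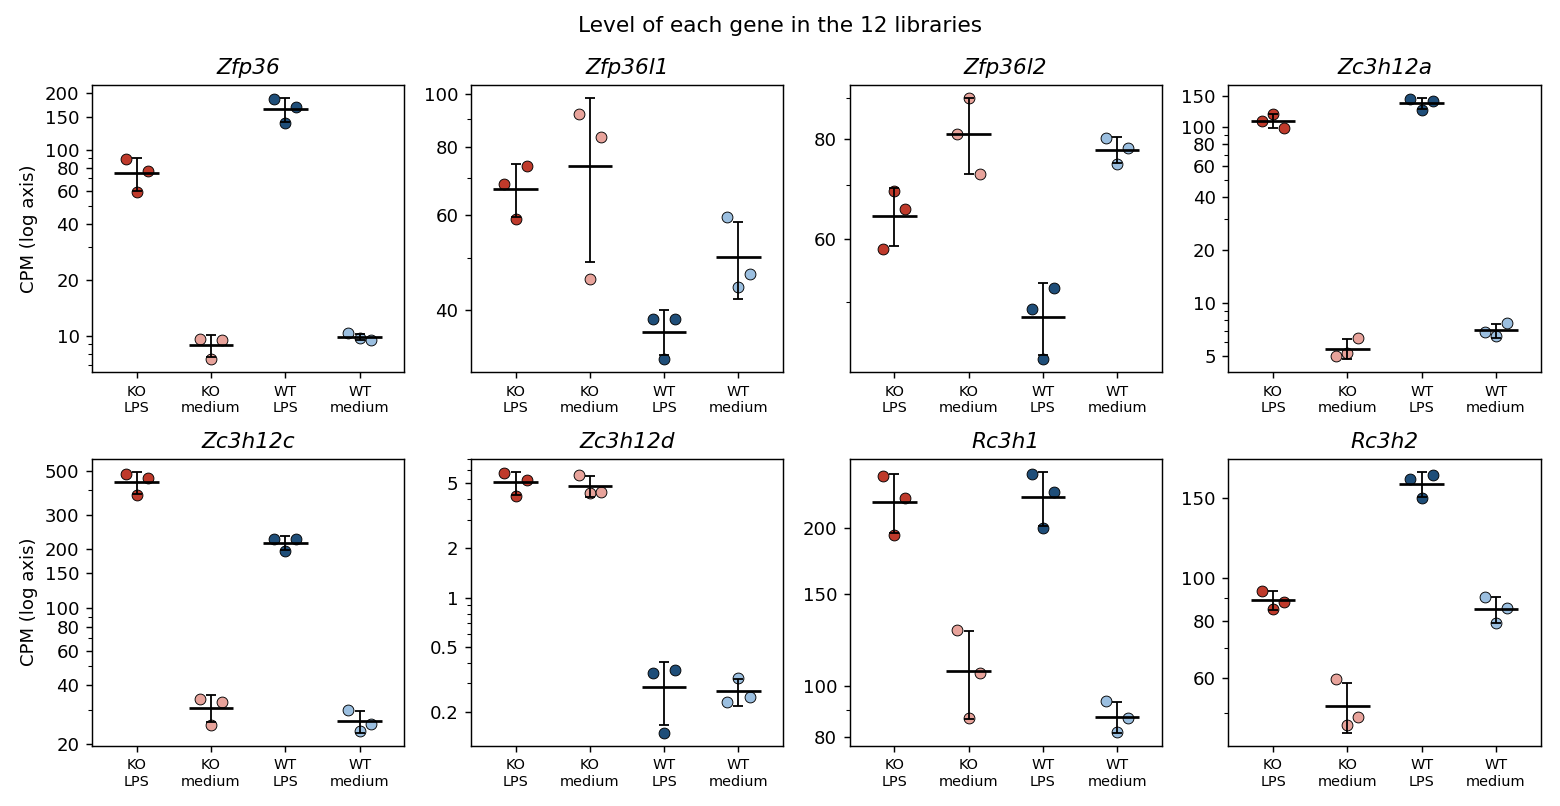
CPM on a log axis for each of the 8 genes in the 12 libraries (points), with the group mean (line) and SD (whiskers), n = 3 per group. Zfp36, Zc3h12a and Zc3h12c rise far above medium under LPS in both lines, Rc3h1 and Rc3h2 less so, and Zc3h12d separates the lines rather than the treatments.

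Zfp36, which encodes tristetraprolin, was the member of its family that LPS raised. It had 89.4, 59.3 and 76.7 CPM in LPS-treated KO libraries, against 9.66, 7.51 and 9.53 CPM in KO in medium. In the WT line it had 186, 138 and 170 CPM under LPS, against 10.3, 9.71 and 9.55 CPM in medium. All treated libraries lay far above all libraries in medium, and the LPS-treated KO libraries lay between, below every LPS-treated WT library. The log2 fold change was 3.08 ± 0.17 (SE, 8.44-fold, adjusted p = 1.7e-07) in KO and 4.06 ± 0.17 (16.7-fold, adjusted p = 2.81e-08) in WT. Under LPS KO was lower than WT by -1.13 ± 0.15 (adjusted p = 0.00029), and in medium the lines differed by -0.15 with a 95% interval of -0.46 to 0.17 (adjusted p = 0.521). The LPS effect in KO minus that in WT was -0.99 ± 0.22, with an adjusted p of 0.0533 and a range of 0.00558 to 0.213 over the alternatives, 9 of which took it past the threshold, among them 0.02 without WT medium replicate 2, 0.0262 without KO medium replicate 2 and 0.0362 without KO LPS replicate 1.

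Zfp36l1 and Zfp36l2 are the paralogs of Zfp36 that bind the same AU-rich elements, and neither rose. Zfp36l1 had 68.3, 58.8 and 73.7 CPM in KO under LPS, against 92, 45.6 and 83.6 CPM in KO in medium, and 38.5, 32.5 and 38.5 CPM in WT under LPS, against 59.3, 44.1 and 46.7 CPM in WT in medium. The KO libraries in medium spread widely, with replicate 2 at about the WT level. The LPS effect was -0.14 ± 0.22 in KO (adjusted p = 0.619) and -0.45 ± 0.22 in WT (adjusted p = 0.137), neither past the threshold. Without KO medium replicate 2 both passed, at -0.45 in KO (adjusted p = 0.016) and with adjusted p = 0.00639 in WT (the WT effect also with library size alone, at 0.00973, and with only the groups compared, at 0.0098), and so did KO against WT in medium (adjusted p = 0.00145). Under LPS the 3 KO libraries lay above the 3 WT libraries, a difference of 0.87 ± 0.22 (adjusted p = 0.0165), which no longer passed on leaving out KO LPS replicate 1 (0.0516) or 3 (0.0644), or WT LPS replicate 2 (0.0699). Of the 31-mers of Zfp36l1, 6.79% also occur in other genes, with the pseudogene Zfp36l1-ps sharing the most, so its counts are less certain than those of the other members.

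Zfp36l2 fell under LPS in both lines. It had 58.2, 68.8 and 65.4 CPM in KO under LPS, against 81.3, 90.1 and 72.3 CPM in KO in medium, and 49, 42.4 and 52.1 CPM in WT under LPS, against 80.3, 74.4 and 78 CPM in WT in medium. Treated and untreated libraries did not overlap in either line. The log2 fold change was -0.34 ± 0.10 in KO (adjusted p = 0.0158) and -0.70 ± 0.10 in WT (adjusted p = 0.000339). The KO call was lost without KO LPS replicate 1 (adjusted p = 0.0714), in DESeq2 (0.06) and once the fit included each library's pseudogene share (0.289). Under LPS KO was higher than WT by 0.42 ± 0.10 (adjusted p = 0.0115, and 0.0527 without WT LPS replicate 2).

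Scaled to exon length, the makeup of the tristetraprolin family differed between the lines under LPS. Zfp36 made up 34.6% ± 4.64 (SD, n = 3) of the family's CPM per kb in KO under LPS and 64.7% ± 1.76 in WT under LPS. In medium it made up 5.11% ± 0.227 in KO and 6.85% ± 0.363 in WT. Zfp36l1 and Zfp36l2 held 35.9% ± 1.53 and 29.4% ± 4.74 in KO under LPS, against 16.8% ± 0.651 and 18.6% ± 1.1 in WT under LPS. The shares of Zfp36 under LPS did not overlap, running from 30.4% to 39.6% in KO and from 63.4% to 66.7% in WT. The family's summed level was 62.2 ± 5.2 CPM per kb in KO and 73.1 ± 9.37 in WT under LPS, and 50.3 ± 6.85 in KO and 41.6 ± 3.62 in WT in medium.

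**Figure D2:**
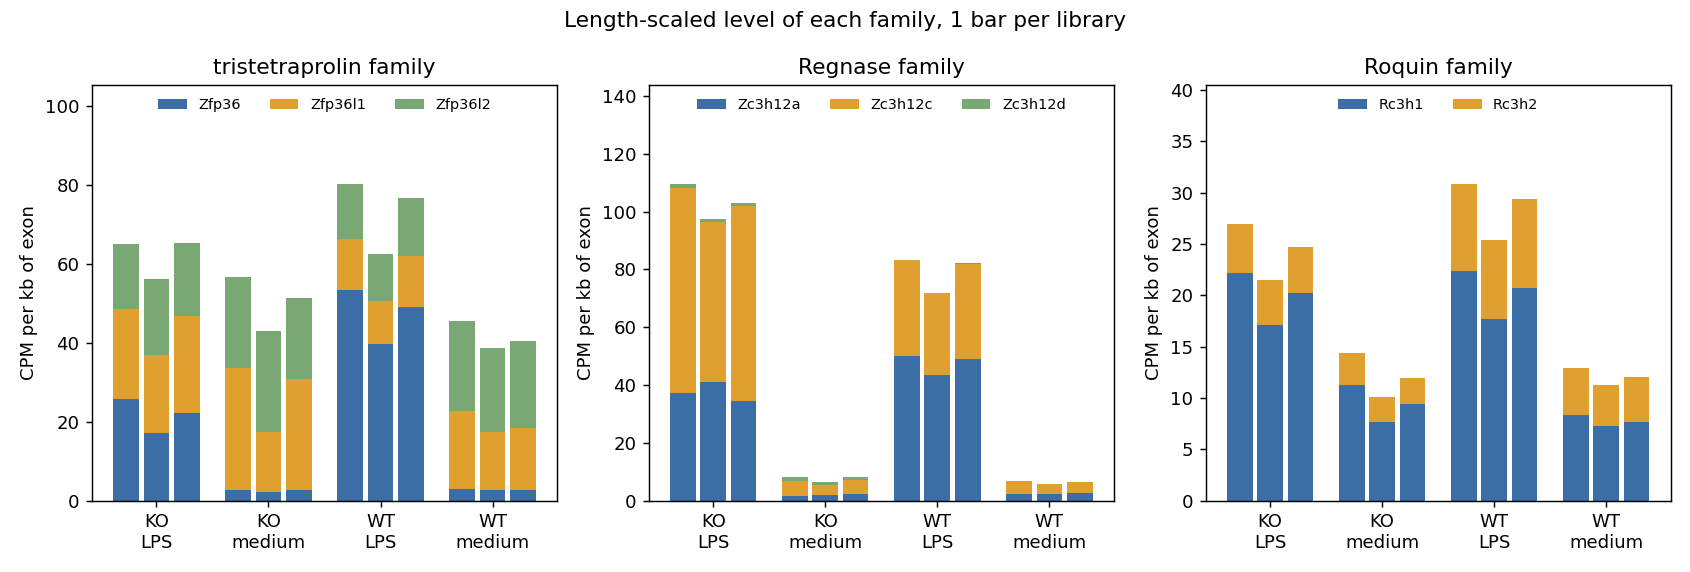
CPM per kb of exon in each of the 12 libraries (1 bar each), stacked by gene, for the tristetraprolin, Regnase and Roquin families. Under LPS Zfp36 and Zc3h12a take the largest part of their families in WT, while in KO Zc3h12c leads the Regnases and the 3 tristetraprolin genes are about level.

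Zc3h12a, the RNase that cuts stem-loops in cytokine mRNAs and in its own mRNA, rose to about the same extent in both lines. It had 108, 119 and 98.9 CPM in KO under LPS, against 5.02, 5.26 and 6.35 CPM in KO in medium. In WT it had 144, 125 and 141 CPM under LPS, against 6.89, 6.49 and 7.74 CPM in medium. The log2 fold change was 4.29 ± 0.12 in KO (19.6-fold, adjusted p = 1.69e-09) and 4.28 ± 0.12 in WT (19.4-fold, adjusted p = 1.64e-09), and their difference was 0.01 with a 95% interval of -0.29 to 0.31 (adjusted p = 0.982). All KO libraries lay below all WT libraries within each treatment. KO was lower by -0.34 ± 0.11 under LPS (adjusted p = 0.0449) and differed by -0.35 ± 0.11 in medium (adjusted p = 0.0523), so that the sizes were alike and the calls fell on either side of the threshold. Under LPS the adjusted p ran from 0.014 to 0.167 over the alternatives, 9 of which lost the call, 6 of them by leaving out 1 library (0.0614 without WT medium replicate 1, 0.148 and 0.134 without WT LPS replicate 1 or 3, 0.0514 without KO medium replicate 2, and 0.113 and 0.167 without KO LPS replicate 1 or 3). In medium 6 alternatives gained the call, down to 0.0188 without WT medium replicate 2, 0.0195 without KO medium replicate 3 and 0.0437 without KO LPS replicate 2.

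Zc3h12c, a paralog with the same RNase domain, rose in both lines. It had 484, 377 and 462 CPM in KO under LPS, against 34, 25.1 and 32.8 CPM in KO in medium, and 226, 195 and 225 CPM in WT under LPS, against 30, 23.4 and 25.3 CPM in WT in medium. Every LPS-treated KO library lay above every LPS-treated WT library, whereas in medium the lines overlapped. The log2 fold change was 3.85 ± 0.15 in KO (14.4-fold, adjusted p = 1.55e-08) and 3.04 ± 0.15 in WT (8.22-fold, adjusted p = 7.54e-08). KO was higher than WT under LPS by 1.03 ± 0.14 (adjusted p = 0.000254), and in medium the difference was 0.23 with a 95% interval of -0.05 to 0.50 (adjusted p = 0.262). The LPS effect in KO minus that in WT was 0.81 ± 0.20, with an adjusted p of 0.075 and a range of 0.00354 to 0.214 over the alternatives, 7 of which took it past the threshold, among them 0.0144 without WT medium replicate 2 and 0.0377 without KO LPS replicate 2.

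Zc3h12d, the third Regnase measured here, is best known from lymphocytes, and it separated the lines without responding to LPS. It had 5.76, 4.15 and 5.25 CPM in KO under LPS, against 0.345, 0.15 and 0.364 CPM in WT under LPS, and 5.62, 4.37 and 4.42 CPM in KO in medium, against 0.232, 0.324 and 0.249 CPM in WT in medium. The WT libraries held 6 to 23 counts each and the KO libraries 198 to 289, with no overlap. KO was higher by 4.09 ± 0.30 under LPS (17.1-fold, adjusted p = 2.97e-06) and by 4.15 ± 0.31 in medium (17.8-fold, adjusted p = 3.98e-06). The LPS effect was 0.07 with a 95% interval of -0.43 to 0.57 in KO (adjusted p = 0.832) and 0.13 with an interval of -0.49 to 0.76 in WT (adjusted p = 0.767).

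Per kb of exon, Zc3h12a made up 36.6% ± 4.98 of the Regnase family in KO under LPS and 60.1% ± 0.231 in WT under LPS. Zc3h12c made up 62.2% ± 4.9 in KO under LPS and 39.8% ± 0.231 in WT under LPS, so that a different gene led the family in each line. In medium Zc3h12c led in both, with 58.9% ± 2.83 in KO and 60.4% ± 3.48 in WT, and Zc3h12d made up 15.6% ± 1.91 in KO and 1.05% ± 0.29 in WT. The summed level of the family was 103 ± 6.36 CPM per kb in KO under LPS, against 7.58 ± 0.872 in KO in medium, and 79.1 ± 6.23 in WT under LPS, against 6.34 ± 0.548 in WT in medium. Of the 3 families its sum differed most between LPS and medium in both lines. The shares and sums leave out the paralog Zc3h12b, which averaged 1.07 CPM in KO and 0.619 CPM in WT under LPS. In medium Zc3h12b averaged 0.956 CPM in KO and 0.721 CPM in WT.

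The Roquin genes rose more modestly. Rc3h1 had 251, 194 and 228 CPM in KO under LPS, against 128, 87.1 and 106 CPM in KO in medium, and 253, 200 and 234 CPM in WT under LPS, against 93.8, 81.9 and 87 CPM in WT in medium. The lines overlapped within each treatment, while treated and untreated libraries did not overlap. The log2 fold change was 1.07 ± 0.14 in KO (2.09-fold, adjusted p = 0.000205) and 1.39 ± 0.15 in WT (2.62-fold, adjusted p = 2.68e-05). KO against WT was -0.03 under LPS, with a 95% interval of -0.31 to 0.25 (adjusted p = 0.935). In medium it was 0.29, with an interval of 0.01 to 0.57. Its unadjusted p there was 0.0672 in edgeR (adjusted p = 0.171, and 0.0434 without KO medium replicate 2).

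Rc3h2, the paralog of Rc3h1 that shares its stem-loop letters, rose with LPS and was lower in KO with and without it. It had 93.7, 85.4 and 88.2 CPM in KO under LPS, against 59.5, 47.2 and 49.1 CPM in KO in medium, and 166, 150 and 169 CPM in WT under LPS, against 90.6, 79.3 and 85.6 CPM in WT in medium. The LPS-treated KO libraries overlapped the untreated WT libraries. The LPS effect was 0.78 ± 0.10 in KO (1.72-fold, adjusted p = 1e-04) and 0.93 ± 0.10 in WT (1.9-fold, adjusted p = 2.46e-05). KO was lower by -0.86 ± 0.10 under LPS (adjusted p = 6.27e-05) and by -0.71 ± 0.10 in medium (adjusted p = 0.000344). Per kb of exon Rc3h1 made up 81.3% ± 1.38 of the Roquin level in KO and 71% ± 1.44 in WT under LPS, and 78% ± 1.56 in KO and 64.1% ± 0.231 in WT in medium.

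**Figure D3:**
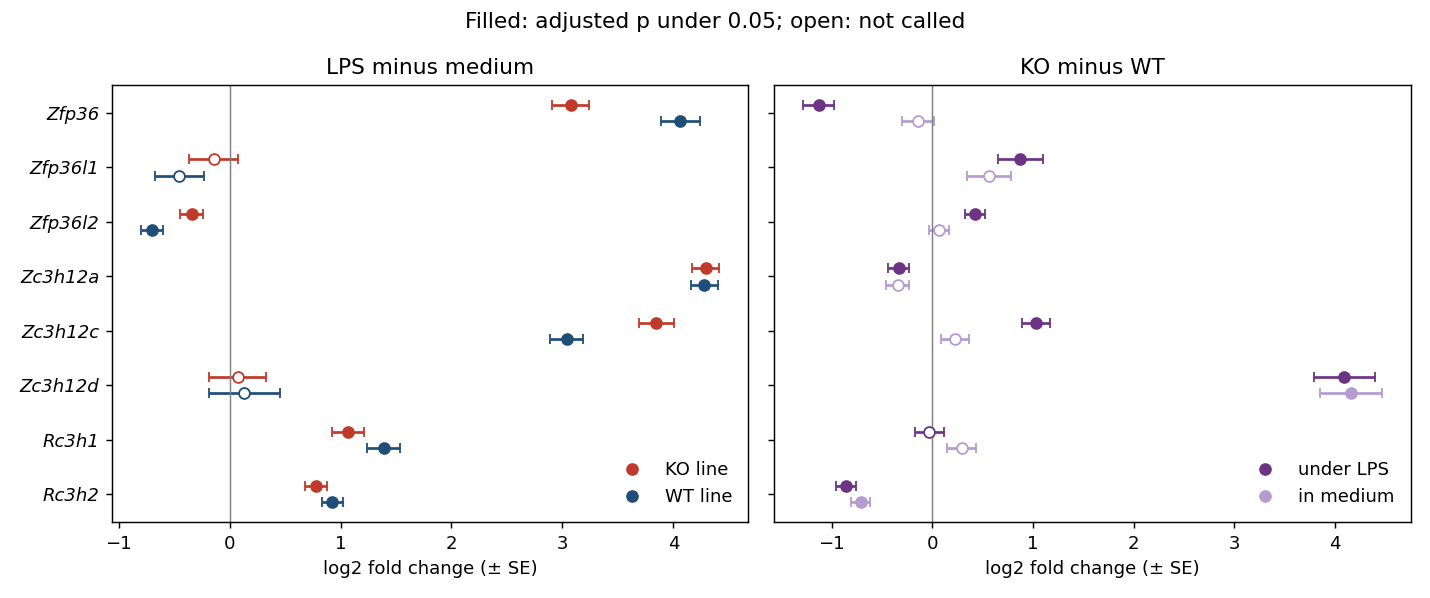
Log2 fold change ± SE of the 8 genes for LPS against medium in each line (left) and KO against WT in each treatment (right); filled points passed an adjusted p under 0.05. Zfp36 and Zc3h12c lie on opposite sides of 0 for KO against WT under LPS (-1.13 and 1.03) and near 0 in medium, and Zc3h12d lies above 4 in both.

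Under LPS the tristetraprolin and Regnase families each held genes that differed between the lines in opposite directions. Zfp36 was lower in KO while Zfp36l1 and Zfp36l2 were higher, and Zc3h12a was lower in KO while Zc3h12c and Zc3h12d were higher. Rc3h2 was lower and Rc3h1 was not called. The Zfp36, Zfp36l2, Zc3h12c and Zc3h12d genes overlap small or uncharacterised genes on the other strand, as does Zfp36l1, and the strand setting of the counting is not given in the sources used here, so reads of those partners cannot be told apart from theirs. On the same strand Rc3h1 overlaps Gm37052, Gm37809 and Gm37653, Rc3h2 overlaps Snord90 and Zc3h12d overlaps Mir5104. Strand does not separate the reads of these genes.

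Among 9749 protein-coding genes, those most like Zfp36 in log2 CPM over the 12 libraries were Spryd7 (Pearson r = 0.997), Marcksl1 (0.996) and the chemokine Cxcl10 (0.996). Those most like Zc3h12a were Tnf (0.999), Nfkbiz (0.996), which encodes an atypical IkappaB protein, and the chemokine Ccl3 (0.996). Those most like Rc3h1 were the kinase Jak2 (0.991), the ferritin heavy chain Fth1 (0.990) and Tent5c (0.988). These values are descriptions, since the 12 points share the LPS and medium groups.

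The mRNAs listed as targets of tristetraprolin were mostly higher under LPS in both lines and mostly lower in KO. Under LPS 25.3% of all genes were called higher and 26.8% lower in KO, and 16.3% each way in WT. Of the 21 targets 19 rose and 1 fell in KO, and 19 rose and 1 fell in WT. Their median log2 fold changes were 4.28 and 4.41, beside -0.04 and -0.07 over all genes. The gene that fell was Fos in each line, at -1.26 ± 0.23 in KO and -0.81 ± 0.22 in WT (adjusted p = 0.00142 and 0.0148, edgeR; the WT call was lost without WT LPS replicate 3, at 0.0671). It is an immediate-early gene, and it is named here after its values were seen. Under LPS 13 of 21 were lower in KO than in WT and none was higher in edgeR, with 14 at an unadjusted p under 0.05 and 13 called by DESeq2 in either direction. In medium 12 were lower and none higher, with 12 at an unadjusted p under 0.05 and 12 called by DESeq2. The median difference was -1.24 under LPS and -0.75 in medium, beside 0.07 and 0.04 over all genes. Of all genes 12.7% and 12.3% were called lower, and 7.87% and 6.88% higher.

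Tnf, the target with the most nonamers among the members and targets searched, had 1370, 1360 and 1040 CPM in KO under LPS and 2040, 1790 and 1670 CPM in WT under LPS. The lines did not overlap, and KO was lower by -0.55 ± 0.12 (adjusted p = 0.00663). The cytokine Il1a had 29.2, 25.4 and 19.5 CPM in KO under LPS and 895, 917 and 598 CPM in WT under LPS, a difference of -5.02 ± 0.22 (adjusted p = 5.83e-08). The neutrophil chemokine Cxcl2, with 4 nonamers, had 159, 228 and 94.9 CPM in KO under LPS and 1430, 1370 and 1110 CPM in WT under LPS, a difference of -3.02 ± 0.29 (adjusted p = 2.53e-05). Csf3, the growth factor of neutrophils, had 6.93, 28.4 and 3.7 CPM in KO under LPS and 392, 349 and 271 CPM in WT under LPS (-4.69 ± 0.64, adjusted p = 0.000411). Il1rn, the antagonist of the interleukin receptor that Il1a binds, had 889, 871 and 586 CPM in KO under LPS and 4490, 3950 and 3510 CPM in WT under LPS (-2.35 ± 0.20, adjusted p = 6.89e-06). In medium Il1rn had 13.1, 8.28 and 9.49 CPM in KO and 178, 194 and 191 CPM in WT, so the line difference was there before LPS. Il1a, Cxcl2 and Tnf were also called lower in KO in medium. Il1a averaged 0.147 CPM in KO and 10.8 CPM in WT there, Cxcl2 0.0465 and 0.502 CPM, and Tnf 4.15 and 6.56 CPM. Csf3 averaged 0.185 CPM in KO and 0.195 CPM in WT in medium, where the lines overlapped. The chemokine Ccl3, the target with the highest mean CPM, did not differ between the lines under LPS beyond its spread (-0.35 ± 0.21, adjusted p = 0.302). No nonamer was found in the 3′ UTRs of Il1a, Csf3, Il1rn or Ccl3, and a link between nonamers and line differences was not tested.

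Of the targets of Regnases and Roquins, 8 of 14 rose and 1 fell under LPS in KO, and 10 rose and none fell in WT in edgeR, with 10 at an unadjusted p under 0.05 and 10 called by DESeq2. Over all genes 25.3% were called higher and 26.8% lower in KO, and 16.3% each way in WT. The gene that fell in KO was the lymphocyte cytokine Il2, at a mean of 2.47 CPM in KO under LPS and 5.19 CPM in KO in medium (-1.08 ± 0.28, adjusted p = 0.00792), named after its values were seen. Tnf, Il6 and Ptgs2 belong to both target lists. Between the lines under LPS 7 of 14 were lower in KO and none higher in edgeR, with 7 at an unadjusted p under 0.05 and 7 called by DESeq2, and the median difference was -0.44, beside 0.07 over all genes, of which 12.7% were called lower and 7.87% higher. Ptgs2, which encodes the prostaglandin-making enzyme cyclooxygenase, had 473, 380 and 377 CPM in KO under LPS and 2480, 1760 and 1580 CPM in WT under LPS (-2.24 ± 0.17, adjusted p = 2.7e-06). Il6 had 18.6, 24.5 and 11.7 CPM in KO under LPS and 97.8, 58.9 and 45.2 CPM in WT under LPS (-1.88 ± 0.32, adjusted p = 0.00177). Lcn2, an iron-scavenging protein of the acute phase, had 6.61, 19.6 and 4.15 CPM in KO under LPS and 47.7, 47.5 and 31.4 CPM in WT under LPS (-2.06 ± 0.52, adjusted p = 0.0173). The Lcn2 call was lost without WT LPS replicate 1 (0.0577) or 2 (0.0515) or KO LPS replicate 1 (0.0761). Under LPS the lines did not overlap for any of these 3 genes. In medium Ptgs2 averaged 4.07 CPM in KO and 13 CPM in WT and was called lower in KO. Il6 averaged 0.131 CPM in KO and 0.0817 CPM in WT in medium, and Lcn2 0.204 and 0.178 CPM. For Il6 and Lcn2 the lines overlapped in medium. Nfkbiz, whose stem-loop is shown above, rose in both lines and did not differ between them beyond its spread under LPS (-0.18 ± 0.10, adjusted p = 0.270). Nfkbid, a related IkappaB protein with a stem-loop shown above, had a mean of 23.8 CPM in KO and 41 CPM in WT under LPS (-0.79 ± 0.18, adjusted p = 0.00966). No stem-loop match was found in Ptgs2, Il6 or Lcn2, and a link between stem-loops and line differences was not tested.

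**Figure D4:**
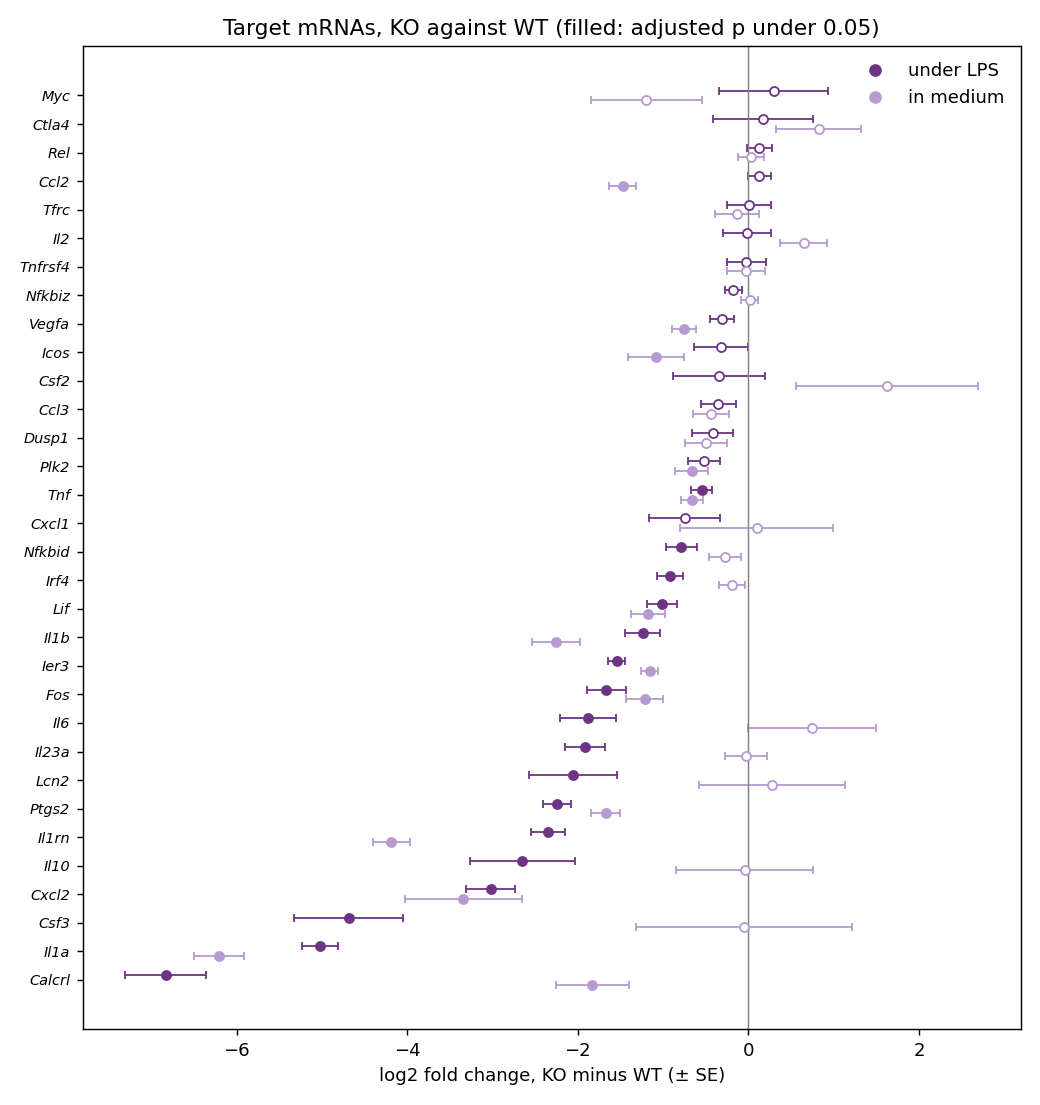
Log2 fold change ± SE, KO minus WT, of the 32 target mRNAs that were tested, under LPS and in medium, with genes ordered by the value under LPS; filled points passed an adjusted p under 0.05. The called points all lie below 0, 17 of 32 under LPS and 14 of 32 in medium, and the points above 0 are open. Of all genes 12.7% under LPS and 12.3% in medium were called lower, and 7.87% and 6.88% higher.

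Counts for the machinery that these proteins bring in depended on the scaling, and stand beside 25.3% of all genes called higher and 26.8% lower under LPS in KO, and 16.3% each way in WT. Of 18 deadenylation genes, 6 rose and 1 fell under LPS in KO, and 7 rose and 1 fell in WT; with library size alone 4 were higher and 7 lower in KO, and 3 higher and 9 lower in WT. Cnot1, the scaffold of CCR4-NOT, averaged 383 CPM in KO under LPS and 382 CPM in KO in medium, and 381 CPM in WT under LPS and 354 CPM in WT in medium, and it did not pass in any comparison, though with library size alone it did under LPS in both lines. The genes that rose most were Btg1 (1.42 ± 0.20 in KO, 1.37 ± 0.20 in WT) and Btg2 (1.40 ± 0.08 in KO, 1.52 ± 0.08 in WT), antiproliferative proteins that bind the deadenylase. Their relative Tob1 fell in both lines, at -1.17 ± 0.09 in KO and -0.99 ± 0.09 in WT. Btg2 had 21.5, 22.1 and 22.7 CPM in KO under LPS and 39, 36.6 and 35.7 CPM in WT under LPS, and it was lower in KO under LPS (-0.75 ± 0.08, adjusted p = 3.35e-05) and in medium (-0.63 ± 0.08, adjusted p = 0.000194).

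Of 12 decapping genes, 5 rose and none fell under LPS in each line (edgeR; 6 had an unadjusted p under 0.05 and DESeq2 called 5 in each); with library size alone 3 were higher and 2 lower in KO, and 2 higher and 3 lower in WT. Dcp2, the decapping enzyme, had 119, 115 and 139 CPM in KO under LPS, against 77.8, 66.5 and 76.8 CPM in KO in medium, and 199, 192 and 232 CPM in WT under LPS, against 81.1, 76 and 74.7 CPM in WT in medium. It rose by 0.76 ± 0.10 in KO and 1.43 ± 0.10 in WT on the log2 scale, and under LPS it was lower in KO by -0.74 ± 0.10 (adjusted p = 0.00027). Dcp1a, its activator, was higher in KO under LPS (0.38 ± 0.07, adjusted p = 0.00321). Of 13 exosome genes tested, 6 rose in KO and 5 in WT; with library size alone 2 were higher and 3 lower in KO, and 0 higher and 5 lower in WT. Exosc10, the nuclear exonuclease, rose by 0.33 ± 0.07 in KO and 0.42 ± 0.07 in WT, calls lost with library size alone (adjusted p = 0.43 and 0.354). Exosc2, a cap subunit, did not pass under LPS in either line and was lower in KO, at 23.4, 36.5 and 23.5 CPM in KO and 51.7, 50.1 and 54.2 CPM in WT under LPS (-0.90 ± 0.16, adjusted p = 0.00191), and in medium (-0.94 ± 0.16, adjusted p = 0.00194). The medians of the deadenylation, decapping and exosome lists under LPS were 0.14, 0.19 and 0.16 in KO and 0.14, 0.15 and 0.17 in WT, beside -0.04 and -0.07 over all genes, and all 6 were below 0 with library size alone.

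Of 17 regulators and partners, 12 rose and 2 fell under LPS in KO, and 11 rose and 1 fell in WT, where 25.3% of all genes were called higher and 26.8% lower in KO and 16.3% each way in WT. With library size alone 8 were higher and 3 lower in KO, and 7 higher and 2 lower in WT. Mapkapk2, which encodes the kinase that inactivates tristetraprolin, had 1390, 1010 and 1340 CPM in KO under LPS, against 285, 222 and 263 CPM in KO in medium, and 1440, 1240 and 1300 CPM in WT under LPS, against 323, 288 and 283 CPM in WT in medium. It rose by 2.28 ± 0.14 in KO and 2.15 ± 0.14 in WT, and the lines overlapped within each treatment. Malt1, the protease that cleaves Zc3h12a and Roquins, rose by 2.74 ± 0.19 in KO and 2.92 ± 0.19 in WT. Dusp1, the phosphatase that turns off the p38 kinase and itself a listed target of tristetraprolin, rose by 1.85 ± 0.25 in KO and 1.77 ± 0.25 in WT. For both genes replicate 2 was the lowest of the LPS-treated KO libraries. Malt1 had 552, 301 and 501 CPM in these libraries, and Dusp1 40.6, 17.8 and 40.6 CPM. Under LPS 6 of the 17 were lower in KO and 1 was higher, beside 12.7% and 7.87% of all genes. Tank, an adaptor that binds Zc3h12a and the deubiquitinase Usp10, had 80.8, 77.4 and 77.8 CPM in KO and 152, 151 and 141 CPM in WT under LPS (-0.91 ± 0.06, adjusted p = 9.97e-07). Usp10 was the gene higher in KO, with 140, 164 and 144 CPM in KO and 98.6, 88.3 and 94 CPM in WT under LPS (0.67 ± 0.09, adjusted p = 2e-04). Ywhab, one of the 14-3-3 proteins that bind phosphorylated tristetraprolin, had 118, 134 and 123 CPM in KO and 226, 197 and 225 CPM in WT under LPS (-0.79 ± 0.09, adjusted p = 6.67e-05).

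Among 12 other RNA-binding proteins tested, 7 rose and 1 fell under LPS in KO, and 7 rose and none fell in WT in edgeR, with 8 at an unadjusted p under 0.05 and 7 called by DESeq2. Over all genes 52% were called in KO and 32.6% in WT. With library size alone 4 were higher and 2 lower in KO, and 3 higher and 4 lower in WT, Khsrp among the lower in both. N4bp1, whose RNase domain is related to that of the Regnases, had 121, 91.7 and 121 CPM in KO under LPS, against 64.5, 62.8 and 66.1 CPM in KO in medium, and 195, 180 and 206 CPM in WT under LPS, against 65.8, 59.5 and 65.7 CPM in WT in medium. The lines overlapped in medium and were apart under LPS (-0.80 ± 0.11, adjusted p = 0.000215). Zc3hav1, the antiviral zinc-finger protein ZAP, rose by 1.17 ± 0.11 in KO and 1.57 ± 0.11 in WT, and its partner Khnyn was lower in KO under LPS (-0.86 ± 0.18, adjusted p = 0.00547). Elavl1 (HuR), which stabilises mRNAs with AU-rich elements, rose by 0.81 ± 0.08 in KO and 0.71 ± 0.08 in WT, and Khsrp, which promotes their decay, did not pass in any comparison with TMM scaling. Celf1, which binds GU-rich elements, was lower in KO under LPS (-0.67 ± 0.07, adjusted p = 2.18e-05) and in medium (-0.59 ± 0.07, adjusted p = 8.46e-05).

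**Figure D5:**
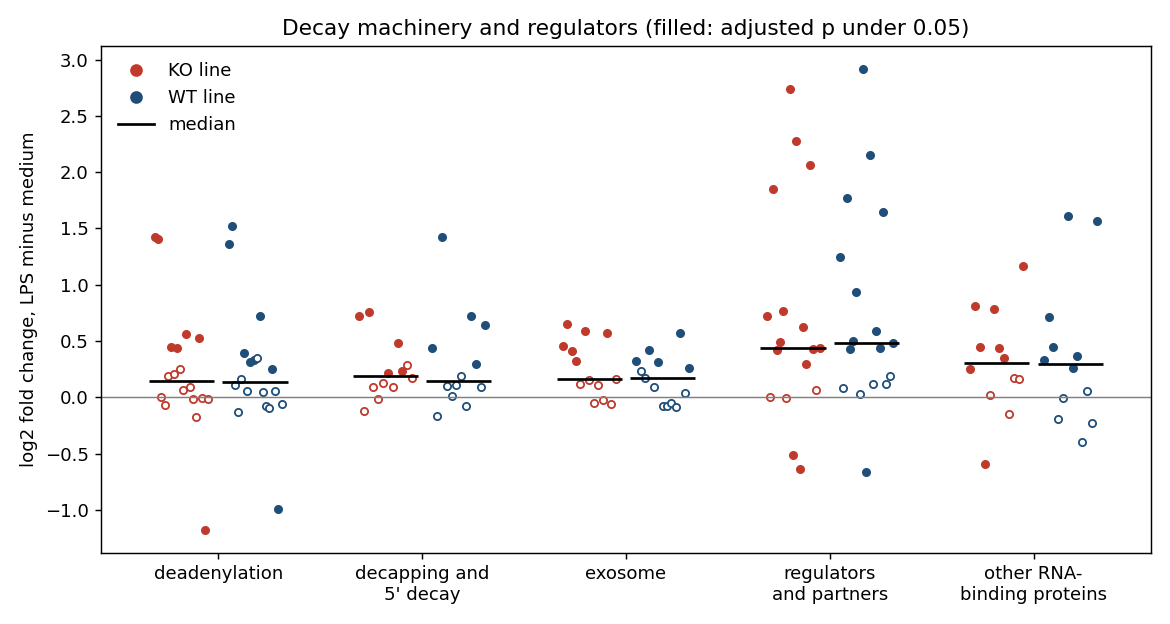
Log2 fold change, LPS minus medium, of each tested gene in 5 lists (points) in the KO and WT lines, with the list's median (bar); filled points passed an adjusted p under 0.05. Most deadenylation, decapping and exosome genes lie within 0.5 of 0, their medians being above 0 here and below 0 with library size alone, and the regulators reach 2.74 in KO and 2.92 in WT (Malt1).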

How the data were processed

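RNA was measured in 12 libraries of SIM-A9 cells by stranded total RNA sequencing after depletion of ribosomal RNA, per the labels' protocols. The deposited values are raw counts per Ensembl gene. Per the submitters' processing notes the build was GRCm39, and the tools were featureCounts, STAR 2.7.9a, Trimmomatic 0.39, FastQC 0.11.9 and DESeq2 1.32.0. How strand and multimapped reads were handled, and which annotation release was used, is not given in the sources used here. All 8 members and all gene lists were chosen with earlier results of these data known. Of 55416 identifiers, 52083 matched a symbol in GENCODE on GRCm38, which gave names, gene classes, exon lengths, 31-mers and 3′ UTR sequences. Identifiers without a symbol held 4.88% to 10.4% of the counts (highest in KO LPS replicate 2) and stayed in the fit.

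The main test of the counts used edgeR 4.0.16 under R 4.3.3: filterByExpr by group with a count minimum of 10 (26420 genes), TMM scaling, and the quasi-likelihood test (glmQLFit, robust) with 4 group means over all 12 libraries. P-values were adjusted by Benjamini-Hochberg over all genes in each of 5 contrasts at a threshold of 0.05, so adjusted p-values in the text are edgeR's unless another tool is named. Log2 fold changes have a model SE, and 95% intervals are normal intervals from that SE. They are narrower than the quasi-likelihood test allows, so an interval can leave out 0 where the test did not pass. CPM are counts per M of the TMM-scaled library. Shares of a family use CPM per kb of exon. The fit was tested on simulated data with known changes. For the difference between LPS effects it recovered 32 of 100 changes whose median estimate was 0.982 on the log2 scale. It recovered 63 to 69 of 100 changes of like size in the other contrasts, so a difference between LPS effects of that size was mostly missed.

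The text names the 8 members and Mok. From each list and comparison the rule took the most abundant gene and up to 3 called genes with the largest change at a mean log2 CPM of at least 2, and not all of these are described. Exceptions are marked where they occur. Nfkbid, whose stem-loop is shown, was also added after its values were seen. The genes most alike in pattern were ranked by Pearson correlation of log2 CPM with a prior count of 2. In the lists, Zfp36l3, Exosc6 and Il12b did not pass the filter. Alternatives were no filter, library size alone, RLE scaling, a count minimum of 30, robust estimation off, DESeq2 1.42.0, a replicate block, only the groups compared, protein-coding genes only and each library left out; the share of processed pseudogenes as a covariate was added after seeing the data.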

Additional observations from a re-analysis of the deposited data

Results flagged for a closer look

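The test of the difference between the LPS effects (KO minus WT, log2, edgeR, adjusted p under 0.05) was passed by 8 genes of the lists and by none of the 8 decay proteins. Of those 8 proteins 3 had an unadjusted p under 0.05, and DESeq2 called 2. The calls were 1 of 43 decay machinery genes, 2 of 17 regulators and partners, 1 of 12 other RNA-binding proteins and 4 of 32 targets. Over all genes 1.6% were called, 0.693% higher and 0.908% lower. In the decay machinery and among its regulators, the difference was -0.67 for the decapping enzyme Dcp2 (adjusted p = 0.041), -0.75 for the kinase Mapkapk3 (0.0358), 0.42 for the adaptor Tank (0.0322) and -0.82 for N4bp1 (0.0198). Mapkapk3 had 52.5, 44.4 and 53.7 CPM in KO under LPS, against 83.7, 68.5 and 81.4 CPM in KO in medium, while in WT it had 77.9, 69.8 and 76.2 CPM under LPS, against 76.5, 61.4 and 68.6 CPM in medium. It fell in KO (-0.63 ± 0.11) and did not pass in WT (0.12 ± 0.11). The calls of Dcp2, Mapkapk3, Tank and N4bp1 were each lost with the processed pseudogene share as a covariate (adjusted p = 0.154, 0.0754, 0.218 and 0.0562) and on leaving out any of several single libraries, with a highest adjusted p of 0.106, 0.11, 0.124 and 0.0638. RLE scaling also lost Dcp2 (0.0605), Mapkapk3 (0.0576) and Tank (0.0537), and having no filter lost Tank (0.137).

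Among target mRNAs the difference was 1.84 for Il1rn (adjusted p = 0.00719) and 1.60 for the chemokine Ccl2 (0.00391), each with a larger LPS effect in KO. Ccl2 had 1980, 1410 and 1400 CPM in KO under LPS, against 2.08, 2.25 and 1.95 CPM in KO in medium, and 1540, 1480 and 1350 CPM in WT under LPS, against 5.27, 6.55 and 5.62 CPM in WT in medium. The lines overlapped under LPS and not in medium. The difference was -1.89 for Il23a (adjusted p = 0.0179) and -5.00 for Calcrl (0.00392), both named after their values were seen. The Il23a call was lost without KO LPS replicate 3 (0.0521), KO medium replicate 3 (0.0666), WT LPS replicate 1 (0.0621) or WT medium replicate 1 (0.0579), and with the pseudogene share in the fit (0.069); those of Il1rn, Ccl2 and Calcrl held under the 21 alternatives. Calcrl, a receptor for calcitonin gene-related peptide, had 0.0652, 0.0919 and 0.0707 CPM in KO under LPS, against 0.175, 0.177 and 0.0811 CPM in KO in medium, and 14.1, 7.75 and 5.18 CPM in WT under LPS, against 0.611, 0.497 and 0.452 CPM in WT in medium.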

How the results depend on the processing

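Each member's log2 fold change was recomputed under 22 alternatives (21 for the difference between LPS effects); of 872 such values 796 kept their direction and side of the threshold, 31 passed it newly, 16 no longer passed and 29 changed sign. The LPS calls of Zfp36, Zc3h12a, Zc3h12c, Rc3h1 and Rc3h2, and the line calls of Zfp36 under LPS, Zc3h12c under LPS, Zc3h12d and Rc3h2, held under every alternative run. Values that changed sign were not called and lay near 0. They were Zc3h12d under LPS in KO (-0.187 with library size alone, -0.046 with no filter, -0.08 with protein-coding genes only, -0.044 to 0.202 with a library left out) and in WT (-0.213 with library size alone, -0.062 to 0.411 with a library left out), Rc3h1 in KO against WT under LPS (0.045 with library size alone, -0.123 to 0.062 with a library left out), Zfp36l1 under LPS in KO (-0.446 to 0.001 with a library left out) and Zfp36l2 in KO against WT in medium (-0.028 to 0.115 with a library left out). For the difference between LPS effects, Zc3h12a gave -0.017 with no filter, -0.041 with protein-coding genes only, -0.082 with the covariate and -0.074 to 0.145 with a library left out, and Zc3h12d gave 0.026 with library size alone, 0.173 with the covariate and -0.335 to 0.138 with a library left out. With library size alone the all-gene median was -0.293 under LPS in KO and -0.403 in WT, and 0.142 for KO against WT under LPS.

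Counts of called genes moved by over 1.5 times as follows, and the causes were not tested. With the pseudogene share as a covariate, whose range did not overlap between LPS and medium in KO, targets called under LPS in KO were 17 (main 26), decay machinery genes 6 (main 18) in KO and 9 (main 18) in WT, machinery genes between the lines in medium 2 (main 4) and for the difference between LPS effects 0 (main 1). With no filter, machinery genes called under LPS in WT were 11. Between the lines in medium, machinery genes were 10 with protein-coding genes only and 8 with the replicate block. For the difference between LPS effects, members called (main 0) were 2 with library size alone, 1 with no filter, 2 with a stricter filter, 2 with protein-coding genes only and 2 in DESeq2, namely Zfp36 in each of these and Zc3h12c wherever 2 are given, and machinery genes were 0 with RLE scaling and 2 with library size alone. With a library left out, machinery genes called ran from 10 to 19 under LPS in WT (10 without WT medium replicate 2), 2 to 8 between the lines in medium (8 without WT medium replicate 2, and 2 without its replicate 1 or 3), 5 to 11 under LPS (main 8; 5 without WT LPS replicate 3) and 0 to 4 for the difference between LPS effects (4 without WT medium replicate 2); members from 2 to 4 between the lines in medium (4 without KO medium replicate 2) and 0 to 2 for the difference; targets from 3 to 7 for the difference (main 4, and 7 without KO LPS replicate 2).

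Same-numbered libraries did not deviate together throughout (correlation over 0.1 in 11 of 18 pairs, from -0.366 to 0.391), so the numbers are not read as pairs. With the replicate block, members called between the lines in medium were 5 (main 2; Zfp36l1, Zc3h12c and Rc3h1 were added) and for the difference between LPS effects 2 (Zfp36 with adjusted p = 0.00558 and Zc3h12c with 0.00354). Each group had 3 libraries, and there was a single KO line.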
